A study of Rattus norvegicus with 27 samples.

Results

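The earliest IFNγ response of cultured rat oligodendrocyte precursor cells (OPCs) was read from 6 of the 27 arrays of the series: 3 arrays of cells kept for 8 h in T3 with IFNγ and 3 arrays of cells kept for 8 h in T3 alone, paired by donor. All 14218 genes with a probe set of their own were compared, and none was selected by its value. The cells came from cerebral cortices of Sprague Dawley rat pups of postnatal day 4 to 6, were picked with magnetic beads against A2B5, a ganglioside of glial progenitors, and were expanded in PDGF-AA (20 ng/mL) with the BMP antagonist Noggin. Both groups were then moved from PDGF to thyroid hormone (T3, 10 nM), which starts differentiation into oligodendrocytes, and differed in rat IFNγ (10 ng/mL). Cells in PDGF at 0 h (3 arrays) and the same 2 treatments at 24, 48 and 96 h (18 arrays) served for comparison. The labels name 3 separate donors and do not say how many pups each donor stands for. A2B5 is also carried by other glial progenitors, and IFNγ without T3 was not analysed here, so the change with IFNγ is that of cells 8 h into PDGF withdrawal and T3.

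IFNγ is a cytokine of T and natural killer cells. It binds a receptor of Ifngr1 and Ifngr2 chains, the attached kinases Jak1 and Jak2 pass the signal to transcription factors in the cytoplasm, and these bind a palindrome known as the gamma-activated sequence (GAS) in the nucleus. Among the first genes switched on are transcription factors of the IRF family, which act with STAT proteins at a second element, the interferon-stimulated response element (ISRE), so that a second set of genes follows the first. In the oligodendrocyte lineage IFNγ is known for inducing antigen presentation and for holding back myelin genes.

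Values are log2 signals after RMA, so a change of 1 is 2-fold, and a change is T3+IFNγ minus T3 within donors, with its standard error (SE). The SE comes from the limma fit of all 27 arrays, not from the spread of the 3 donor changes at 8 h alone. Genes with an adjusted p below 0.05 in limma, with donors as blocks, are named as called, and "rose" and "fell" are used of called genes. The levels of different genes on these arrays cannot be compared with each other. No detection call was used, so a fold is a ratio of signals, and for genes with a low signal without IFNγ that signal was not shown to lie above background. Each gene is given by its brightest probe set. Of 50 named genes called at 8 h that have more than 1, 24 have another probe set that was not called, among them Socs1, Irf2, Psme1, RT1-Db1, Fas, Cflar, Csf1, Fos, Kdr, Tubb3, Cdkn1a, Prox1, Elfn2, Hes5, Sox2, Lingo1, Sema5a, Ugt8, Thra, Prrx1, Prickle2, Nr1h2 and Fgfr3. On the 3 arrays of T3 alone, the OPC receptor gene Pdgfra stood at 12.81, 12.92 and 13.01. The lineage factor Olig1 stood at 12.57, 12.77 and 12.76. The 11 astrocyte markers measured had means of 8.49, 8.75 and 8.88 on these arrays (donors 1 to 3). Since levels of different genes cannot be compared, these values do not give the purity of the cultures. Donor 1 differed most from the other donors. With T3 alone, 84 genes lay at least 2-fold above and 138 at least 2-fold below both other donors in donor 1, as against 0 and 5 in donor 2 and 85 and 0 in donor 3. One array, T3+IFNγ of donor 2, had a higher 3' to 5' difference in the Gapdh control probe sets (0.372) than the other 5 arrays (−0.207 to −0.145), which is a sign of less intact RNA. Counts that moved by more than 1.5 times without that array are given without it. Among the 24 h arrays, T3+IFNγ of donor 2 also had the highest Gapdh difference (0.108, the others −0.243 to −0.064). Its difference in the beta-actin control probe sets (1.465) was the highest of all 27 arrays. No fit left out that 24 h array alone.

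The data also allow a look at the DNA ahead of the responding genes. RefSeq promoter windows of 300 bases (250 before the annotated start and 50 after it, build GRCr8) were found for 11701 of the 14218 genes. They were searched on both strands for the letters TTCNNNGAA (GAS, its own reverse complement) and for GAAA, any 2 bases and GAAA again (ISRE, or TTTC, any 2 bases and TTTC on the other strand). The following 8 stretches of 120 bases before the start are shown as examples of the matches: they were chosen among genes of known role that rose and hold at least 1 match, so they do not stand for all genes that rose. They read 5′ to 3′ on the strand of the gene, and capitals mark the GAS and ISRE matches.
Irf1, chr10:38417737-38417856, plus strand: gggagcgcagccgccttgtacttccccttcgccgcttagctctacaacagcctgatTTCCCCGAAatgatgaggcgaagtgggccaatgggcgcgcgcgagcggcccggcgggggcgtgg
Irf8, chr19:65699058-65699177, plus strand: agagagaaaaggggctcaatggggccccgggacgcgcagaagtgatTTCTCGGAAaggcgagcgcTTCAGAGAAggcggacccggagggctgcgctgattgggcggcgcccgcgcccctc
Socs1, chr10:5389370-5389489, plus strand: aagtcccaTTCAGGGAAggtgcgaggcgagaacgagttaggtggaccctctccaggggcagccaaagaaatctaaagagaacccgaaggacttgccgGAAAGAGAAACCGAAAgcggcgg
Igtp, chr10:42874883-42875002, plus strand: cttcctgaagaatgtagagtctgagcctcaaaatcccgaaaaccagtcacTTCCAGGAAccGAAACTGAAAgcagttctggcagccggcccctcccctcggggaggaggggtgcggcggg
Irgm, chr10:33742579-33742698, minus strand: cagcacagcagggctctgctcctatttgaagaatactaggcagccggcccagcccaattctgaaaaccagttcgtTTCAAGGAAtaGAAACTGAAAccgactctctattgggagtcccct
Gbp7, chr2:233948767-233948886, plus strand: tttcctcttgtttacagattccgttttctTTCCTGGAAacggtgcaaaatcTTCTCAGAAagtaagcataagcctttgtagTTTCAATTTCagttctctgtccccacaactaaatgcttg
Tap1, chr20:4668600-4668719, minus strand: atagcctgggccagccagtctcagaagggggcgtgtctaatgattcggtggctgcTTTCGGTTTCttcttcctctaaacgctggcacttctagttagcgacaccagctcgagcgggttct
Psmb10, chr19:50743293-50743412, minus strand: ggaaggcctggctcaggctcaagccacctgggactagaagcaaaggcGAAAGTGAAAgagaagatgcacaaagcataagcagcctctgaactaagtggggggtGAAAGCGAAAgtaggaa
Irf1 and Irf8 held GAS letters only, Tap1 and Psmb10 ISRE letters only, and the other 4 held both. In Igtp and Irgm the GAS was followed by the same ISRE letters at the same spacing, and the 2 ISRE matches of Socs1 overlapped.

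Over all 11701 promoters, 6.99% held a GAS match and 2.99% an ISRE match. Of the 214 genes with a promoter that rose at least 2-fold at 8 h, 36 (16.8%) held a GAS match and 58 (27.1%) an ISRE match. Of the 29 that rose at least 16-fold, 11 (37.9%) and 17 (58.6%) did. Of the 323 that rose by less than 2-fold the shares were 9.29% and 4.33%. Of the 345 genes with a promoter that fell, 6.67% held a GAS match and 0.87% an ISRE match. The share with either element, given as a description with no test, stood at 69.0%, 37.4% and 13.3% in the genes that rose at least 16-fold, at least 2-fold and less than 2-fold, against 9.61% of all promoters and 7.54% of the promoters of genes that fell. The windows of Psmb9 and Cd74 held no match. A match is a run of letters in a short window, not a measured binding site.

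At 8 h, 662 genes (4.66% of those tested) rose and 406 (2.86%) fell. The rises were the larger: 275 (1.93%) rose at least 2-fold, 108 at least 4-fold and 39 at least 16-fold, while 25 (0.176%) fell at least 2-fold and none at least 4-fold. The median change was 0.82 among the rises and −0.47 among the falls, against −0.04 over all genes. The 3 arrays with IFNγ lay above all 3 without it in 606 of the genes that rose, and below them in 318 of the genes that fell, against 7.52% and 9.5% of all genes. The number of falls depended on single donors and on 1 array: 67 genes fell in the fit without donor 2, 90 in that without donor 3 and 202 without the T3+IFNγ array of donor 2. It was 525 without donor 1 and 577 with the 6 arrays alone, and 294 and 292 of these were among the 406. The count of falls of at least 2-fold was 14 without donor 2. The part of RNA quality in these counts was not tested. The number of rises was 413 without donor 2, 410 without donor 3 and 554 without the T3+IFNγ array of donor 2. It was 699 without donor 1 and 786 with the 6 arrays alone. Rises of at least 2-fold numbered 254 to 281 in the fits that left out donors, that T3+IFNγ array, or the other arrays of the series.

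**Figure D1:**
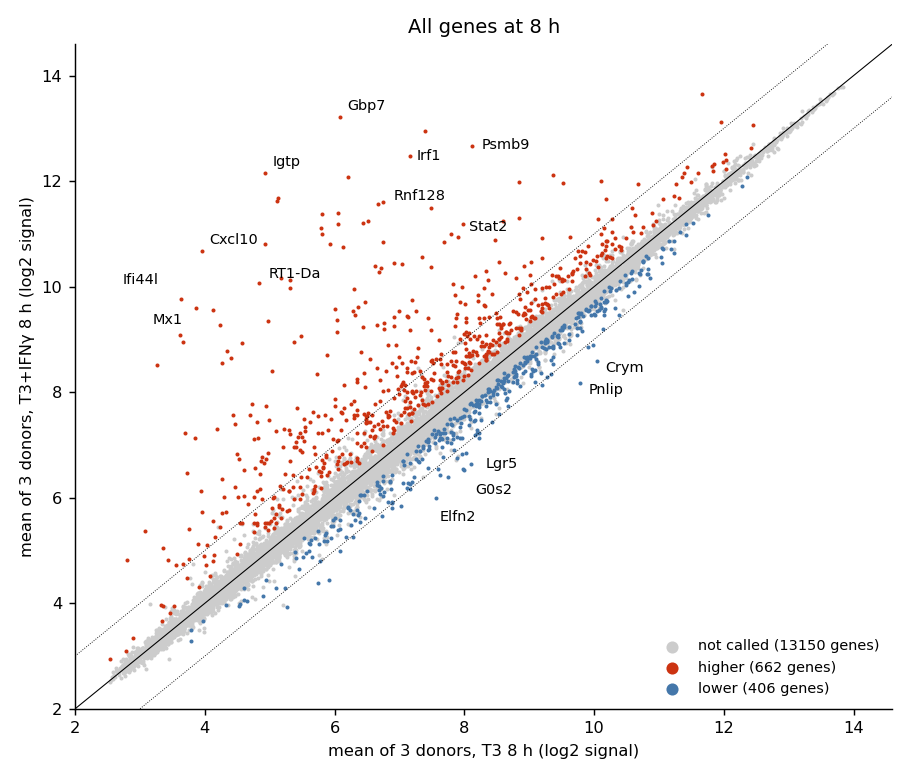
Each point is a gene, with its mean log2 signal over 3 donors in T3 at 8 h on the horizontal axis and in T3+IFNγ at 8 h on the vertical axis. The solid line marks equal signal and the dotted lines a 2-fold difference; red points rose (662 genes), blue points fell (406 genes), and the red points reach much farther from the line than the blue ones.

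The genes of the IFNγ pathway itself split by position. The receptor chains did not pass the test: Ifngr1 had signals of 9.47, 9.37 and 9.86 in T3 and 9.32, 9.16 and 9.61 in T3+IFNγ (donors 1 to 3), a change of −0.20 ± 0.11 (SE), and Ifngr2 a change of 0.02 ± 0.09. Of the kinases and STAT genes below them, Jak1, Jak2, Stat2, Stat3 and Stat6 rose, and Tyk2, Stat4, Stat5a and Stat5b were not called. Jak2 stood at 7.42, 7.70 and 7.70 in T3 and at 8.80, 9.02 and 9.13 in T3+IFNγ (change 1.38 ± 0.10, adjusted p = 1e-09), and Jak1 rose by 0.88 ± 0.08 (adjusted p = 6.33e-08). Stat2, which joins Irf9 in a complex that reads ISREs, was at 8.06, 7.86 and 7.81 in T3 and at 11.07, 10.87 and 10.91 in T3+IFNγ, 8.22-fold higher (3.04 ± 0.11, adjusted p = 9.04e-15). In all of these 3 genes the lowest array with IFNγ lay above the highest without it. Stat3 rose by 2.04 ± 0.15 and Stat6 by 0.39 ± 0.11 (adjusted p = 1.73e-09 and 0.031). Of the 13 measured genes of receptor, kinases and STATs, 5 rose and none fell, with a median of 0.22.

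Some inhibitors of the pathway had risen at 8 h. Socs1, which blocks the JAK kinases, was at 4.21, 4.13 and 4.25 in T3 and at 7.70, 6.40 and 7.79 in T3+IFNγ, a change of 3.10 ± 0.23 (adjusted p = 1.36e-09). Donor 2 had the lowest of the 3 values with IFNγ, still more than 2 log2 units above every array without it. Usp18, which removes ISG15 from proteins and dampens interferon receptors, rose by 3.23 ± 0.21 (adjusted p = 1.74e-10) and Socs2 by 1.30 ± 0.20 (adjusted p = 8.83e-05). Socs3 (0.15 ± 0.10, adjusted p = 0.461) and the phosphatase gene Ptpn2 (0.11 ± 0.09, adjusted p = 0.526) did not pass. These 3 rises, all at least 2-fold, were the only calls among 17 inhibitors measured, whose median was 0.10. Of all genes, 4.66% rose and 1.93% rose at least 2-fold.

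Transcription factors that carry the response onward rose widely: 19 of 33 rose and none fell, with a median of 0.60. Irf1, the first relay of IFNγ signals, stood at 6.87, 7.09 and 7.53 in T3 and at 12.46, 12.58 and 12.38 in T3+IFNγ, which is 39.6-fold (5.31 ± 0.14, adjusted p = 1.14e-16). Irf8, a partner of Irf1 best known in myeloid cells, stood at 4.89, 5.31 and 5.74 in T3 and at 9.92, 10.26 and 10.20 with IFNγ (4.81 ± 0.19, adjusted p = 3.51e-14). The groups were far apart for both genes, and donor 3 had the highest signal without IFNγ. Irf9 rose by 3.39 ± 0.17, Irf7 by 1.88 ± 0.27 and Irf2 by 1.09 ± 0.12 (adjusted p = 2.54e-12, 3.64e-05 and 7.52e-07). The co-activators of the MHC genes were among the rises too. Nlrc5, for class I, was at 4.19, 4.37 and 4.66 in T3 and at 8.54, 8.69 and 8.70 with IFNγ (4.24 ± 0.19, adjusted p = 3.73e-13), and Ciita, for class II, was at 5.25, 4.92 and 4.94 and then at 8.38, 8.55 and 8.31 (3.38 ± 0.19, adjusted p = 1.23e-11). Irf1, Nlrc5 and Ciita had change values of 5.87, 4.61 and 2.95 at 24 h and of 5.67, 3.37 and 2.24 at 96 h. Of the 3, Ciita had a lower change at 96 h than at 8 h by the test of that difference (−1.14 ± 0.27, adjusted p = 0.00989).

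**Figure D2:**
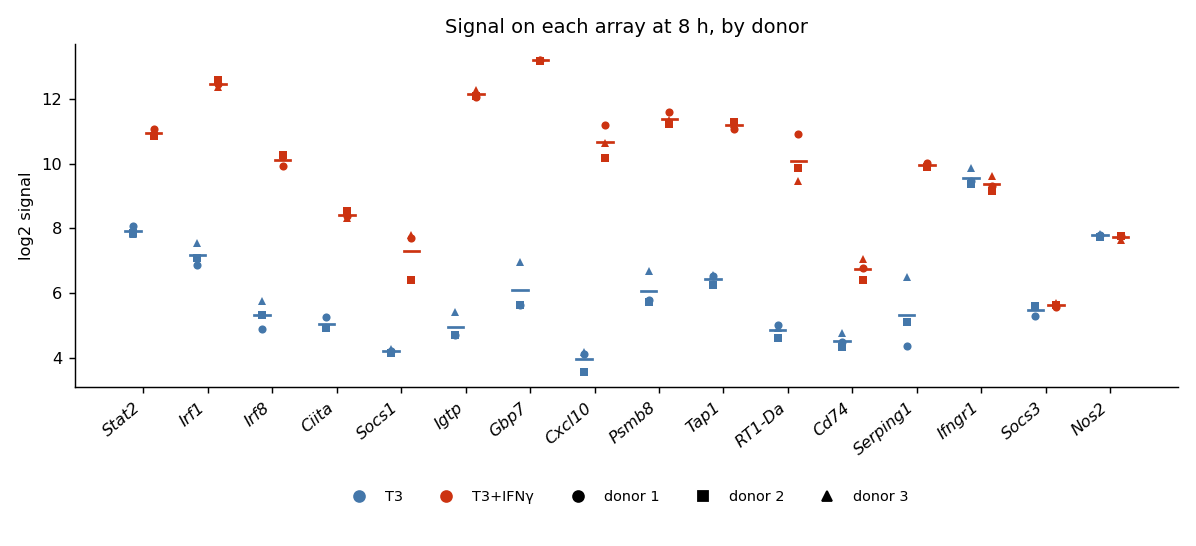
Log2 signal of 16 genes on each of the 6 arrays of the 8 h comparison, blue for T3 and red for T3+IFNγ, with donors 1, 2 and 3 as circles, squares and triangles and a bar at each mean. In the first 13 genes, from Stat2 to Serping1, every red point lies above every blue point, while Ifngr1, Socs3 and Nos2 overlap.

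The largest changes of all belonged to the interferon-inducible GTPases, which coat and break the vacuoles of intracellular pathogens: 9 of 11 measured genes rose, all by at least 2-fold, with a median of 5.56. Igtp led, with 4.70, 4.69 and 5.41 in T3 against 12.06, 12.10 and 12.29 in T3+IFNγ, 149-fold (7.22 ± 0.15, adjusted p = 2.98e-18). Gbp7 was at 5.64, 5.63 and 6.96 in T3 and at 13.22, 13.17 and 13.22 with IFNγ, 140-fold (7.13 ± 0.24, adjusted p = 3.69e-15). With IFNγ the donors were closer together than without it for both genes, and donor 3 had the highest signal without it. Gbp2 (6.56), Irgm (5.87), Mx1 (5.73), Irgm2 (5.56) and Gbp4 (5.46) also stood among the 15 largest rises, as did Ifgga2l1 (6.51), whose T3 signals of 3.98, 5.01 and 6.33 varied more over donors. The mean signal of the 39 genes with rises of at least 16-fold was 5.24, 5.22 and 5.76 in the T3 arrays of donors 1 to 3 at 8 h, and 5.07, 5.54 and 5.61 in the PDGF arrays. With IFNγ it was 10.84, 10.51 and 10.59, so that donor 3 no longer stood highest.

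Of the antiviral genes usually listed as targets of type I interferon, 37 of 44 rose, 30 of them at least 2-fold, none fell, and the median was 1.79. Ifi44l was at 3.73, 3.70 and 3.47 in T3 and at 10.21, 9.43 and 9.68 with IFNγ (6.14 ± 0.16, adjusted p = 4.29e-17). Dtx3l and Parp9, partners in DNA repair and antiviral defence, rose by 5.58 ± 0.19 and 5.19 ± 0.15, and Rtp4, Ifit2 and Rsad2 by 5.13, 4.99 and 4.87. An exception was Ifit3, with 3.65, 3.96 and 3.70 in T3 and 3.98, 4.39 and 5.04 with IFNγ. Its groups did not overlap, but its change of 0.70 ± 0.38 did not pass (adjusted p = 0.33). Its later changes were 0.92, 2.44 and 5.14 at 24, 48 and 96 h, and the change at 96 h exceeded that at 8 h by 4.44 ± 0.53 (adjusted p = 1.2e-05).

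Small protein tags followed. Isg15, which is conjugated to viral and host proteins, rose by 4.62 ± 0.22, and 10 of 11 genes of ISG15 and related conjugation rose, with a median of 2.00. Ubd encodes FAT10, a tag that sends proteins to the proteasome. It stood at 4.97, 4.79 and 5.19 in T3 and at 10.31, 8.35 and 9.38 with IFNγ (4.36 ± 0.30, adjusted p = 3.6e-10). At 8 h donor 2 was again lowest among the arrays with IFNγ, and the change reached 7.39 at 24 h and 8.00 at 96 h.

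Of 26 chemokine genes measured, 8 rose, all at least 2-fold, 1 fell and 17 were not called, with a median of 0.07. Cxcl10, which draws CXCR3-bearing T cells, went from 4.10, 3.56 and 4.18 in T3 to 11.21, 10.17 and 10.63 in T3+IFNγ, 106-fold (6.72 ± 0.26, adjusted p = 2.05e-14). Cxcl9, a ligand of the same receptor, went from 3.72, 3.77 and 3.48 to 9.67, 8.38 and 8.81 (5.30 ± 0.34, adjusted p = 1.36e-10). The third ligand, Cxcl11, had values of 5.31, 6.25 and 7.48 with IFNγ, a wide spread (2.07 ± 0.43, adjusted p = 0.00296, and 0.109 without donor 2, where 6 chemokines rose). Ccl2, an attractant of monocytes, rose 21.8-fold (4.44 ± 0.34, adjusted p = 2.58e-09), and Cxcl16 by 1.79 ± 0.18. The gene that fell was Cxcl2, a neutrophil attractant (−0.55 ± 0.12, adjusted p = 0.00386). Ccl5 had a change of 0.05 ± 0.16 and was not called. By 96 h the changes of Cxcl10 and Cxcl9 were lower than at 8 h by 1.42 and 1.97 on the log2 scale (interaction of −1.42 ± 0.36 and −1.97 ± 0.48, adjusted p = 0.0173 and 0.0132).

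Of 36 cytokines, cytokine receptors and inhibitors, 10 rose and none fell, with a median of 0.04. Il15, which sustains CD8 T and natural killer cells, was at 4.81, 4.56 and 4.83 in T3 and at 7.95, 7.56 and 7.85 with IFNγ (3.05 ± 0.17, adjusted p = 9.8e-12). Il18bp, a decoy for the IFNγ-inducing cytokine IL-18, rose by 2.80 ± 0.12, and Tnfsf10, the death ligand TRAIL, by 2.01 ± 0.19. The other 7 rises were below 2-fold, and the count over the list was 5 without donor 2, 4 without donor 3 and 7 without the T3+IFNγ array of donor 2. Among them Csf1, a growth factor of microglia, changed by 0.40 ± 0.10 on its brightest probe set and by 1.82 on another of its 4.

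Inducible proteasome subunits, which replace constitutive ones and favour peptides for class I, had risen at 8 h. All 5 genes of the immunoproteasome and its activator rose, by 1.91 to 5.34. Psmb8 had signals of 5.78, 5.71 and 6.68 in T3 and of 11.61, 11.24 and 11.34 in T3+IFNγ (5.34 ± 0.22, adjusted p = 4.39e-14). Psmb9 had 7.90, 8.01 and 8.45, then 12.87, 12.52 and 12.62 (4.55 ± 0.17, adjusted p = 1.36e-14), and Psmb10 rose by 3.14 ± 0.19. The activator subunits Psme1 and Psme2 rose by 1.91 ± 0.13 and 2.75 ± 0.11. Psmb5 and Psmb7, constitutive subunits that the inducible ones replace, were not lower by the test, with changes of −0.09 ± 0.08 and −0.13 ± 0.10 (adjusted p = 0.619 and 0.547). Psmb6, another replaced subunit, was not among the measured genes of the list. Of 32 constitutive proteasome genes 4 rose slightly, led by Psma7 (0.46 ± 0.08, adjusted p = 0.000177), none fell, and the median was −0.06. Over that list the count of rises was 2 without donor 1, 1 without donor 2 and 0 without donor 3.

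MHC class I genes and the peptide loading machinery rose in 14 of 21 members, 12 of them at least 2-fold, none fell, and the median was 1.04. The transporter gene Tap1 was at 6.52, 6.26 and 6.54 in T3 and at 11.07, 11.30 and 11.23 with IFNγ, 27.1-fold (4.76 ± 0.14, adjusted p = 3.09e-16). Its partner Tap2 rose by 3.65 ± 0.16, the bridge Tapbp by 2.44 ± 0.20, and the trimming peptidase Erap1 by 1.92 ± 0.10. The light chain B2m, at 11.26, 11.64 and 12.06 without IFNγ, reached 13.72, 13.56 and 13.67 (2.00 ± 0.17, adjusted p = 9.65e-09). Of the heavy chains, the non-classical RT1-S3 rose by 5.33 ± 0.21 and RT1-T24-4 by 3.25 ± 0.17. RT1-A, a heavy chain gene outside the list, rose by 1.80 ± 0.16. MHC heavy chain genes are close relatives, so signal may be shared between their probe sets. The change of RT1-A reached 4.75 at 24 h, 2.95 ± 0.22 more than at 8 h (adjusted p = 8.01e-08), while that of Tap1 was 5.43 and did not pass the test of the difference (0.67 ± 0.20, adjusted p = 0.116).

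Of the MHC class II genes, 6 of 14 rose and none fell, with a median of 0.72. RT1-Da had the largest change, with 5.0, 4.62 and 4.91 in T3 and 10.91, 9.86 and 9.46 in T3+IFNγ (5.23 ± 0.21, adjusted p = 4.2e-14). RT1-Db1 rose by 2.93 ± 0.22 and RT1-DMa, which edits the bound peptide, by 1.51 ± 0.14. The invariant chain gene Cd74 was at 4.47, 4.33 and 4.76 in T3 and at 6.76, 6.40 and 7.04 with IFNγ (2.21 ± 0.28, adjusted p = 8.69e-06), and its change was 5.89 at 24 h, 3.67 ± 0.40 above that at 8 h (adjusted p = 1.85e-05). RT1-Bb changed by 0.77 ± 0.31 and the lysosomal protease gene Ctss by 0.68 ± 0.38, neither called, and by 2.65 and 2.29 at 24 h. Another probe set of RT1-Bb was called, with a change of 0.76. The brightest probe set of RT1-Ba did not pass (0.01 ± 0.11), but 2 of its other probe sets rose by 3.51 and 3.56, so its probe sets disagree. At 24 h, 10 of the 14 were higher, and for 6 of the 14 the change at 24 h exceeded that at 8 h.

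Markers of microglia and macrophages, cells that also carry class II, stand beside these values. Without IFNγ, the marker Lyz2 had signals of 9.47, 9.09 and 11.11 in T3. With no detection call, presence of the whole list was not shown. The mean of the 19 measured markers was 6.53, 6.54 and 7.76 in the T3 arrays of donors 1 to 3 and 7.09, 7.08 and 8.22 in the T3+IFNγ arrays, with donor 3 highest in both groups. Of the 19, 3 rose: Fcgr3a, an Fc receptor gene (2.53 ± 0.36), P2ry12, a purine receptor gene (1.72 ± 0.26), and C1qc, a subunit of complement C1q (1.42 ± 0.43, adjusted p = 0.0481, and 0.145 without the T3+IFNγ array of donor 2). The other 16 were not called. Their changes ran from −0.39 to 1.18, with the largest in C1qb (1.18), C1qa (1.0), Ptprc (0.61) and Cd14 (0.56) and smaller ones in Lyz2 (0.40 ± 0.30), Aif1 (0.33), Tyrobp (0.11) and Csf1r (−0.14). The median over the list was 0.33, against −0.04 over all genes. The change in donors 1, 2 and 3 was 5.91, 5.24 and 4.55 for RT1-Da, 2.29, 2.06 and 2.29 for Cd74, and 3.66, 2.47 and 2.66 for RT1-Db1. More cells of a type and more RNA per cell cannot be told apart on these arrays, and the part of microglia in the class II rises was not tested.

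Genes of cell death and its control rose in 17 of 33 members, none fell, and the median was 0.48. The death receptor gene Fas was at 6.33, 6.64 and 6.51 in T3 and at 7.57, 7.54 and 7.54 with IFNγ (1.06 ± 0.15, adjusted p = 3.64e-05). Inflammatory caspases and the pore former followed, with Casp1 at 1.14 ± 0.23, Casp4 at 1.34 ± 0.20, Casp12 at 1.80 ± 0.17 and Gsdmd at 2.09 ± 0.17. Inhibitors rose beside them. Serpinb9, which blocks granzyme B, rose by 2.89 ± 0.14, and Cflar, which blocks caspase-8 at death receptors, by 1.91 ± 0.13. Casp8 (0.49 ± 0.16, adjusted p = 0.058) and Ripk3 (0.76 ± 0.27, adjusted p = 0.0966) were not called.

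Of complement genes outside C1q, 3 of 12 rose at 8 h, all of the first step of the classical pathway, with a median of 0.12. Serping1, the inhibitor of C1, went from 4.36, 5.09 and 6.49 in T3 to 10.03, 9.91 and 9.98 with IFNγ (4.66 ± 0.34, adjusted p = 1e-09), a wide spread of donors without IFNγ and almost none with it. The C1 proteases rose as well, C1s by 4.36 ± 0.20 and C1r by 3.11 ± 0.17. C3 changed by 0.83 ± 0.39 (adjusted p = 0.252) and by 3.75 at 24 h, a difference of 2.92 ± 0.56 (adjusted p = 0.00766). Of 18 genes of adhesion and co-stimulation 3 rose, Lgals9 (1.86 ± 0.21), Icam1 (1.55 ± 0.19) and Cd47 (0.74 ± 0.10), and Cd40 (0.37 ± 0.19) was not called.

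Enzymes often named with IFNγ in macrophages were mostly not called. Nos2, the inducible nitric oxide synthase, had signals of 7.80, 7.73 and 7.83 in T3 and of 7.76, 7.77 and 7.63 with IFNγ, and Gch1 changed by −0.17 ± 0.09. Ido1, which degrades tryptophan, changed by 0.30 ± 0.14 (adjusted p = 0.26), and by 1.79 at 96 h. Wars1, the tryptophan tRNA synthetase, had already risen by 2.45 ± 0.14 and had its largest change at 8 h (1.73, 1.40 and 1.21 at 24, 48 and 96 h). The interaction at 96 h was −1.24 ± 0.20 (adjusted p = 0.000313). Nampt, of NAD synthesis, rose by 2.47 ± 0.15 and Samhd1, which depletes nucleotides, by 1.52 ± 0.17. In this list 4 of 31 rose, none fell and the median was −0.01.

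Strong rises also lay outside the interferon and antigen presentation lists. Hpgd, which inactivates prostaglandins, went from 4.14, 4.11 and 4.13 in T3 to 10.13, 9.16 and 9.38 with IFNγ (5.42 ± 0.25, adjusted p = 5.75e-13). RGD1309362, a gene without a settled name, rose by 5.90 ± 0.24. Rnf128, a ubiquitin ligase gene known from T cells, went from a mean of 6.75 ± 0.39 (SD, n = 3) in T3 to 11.60 ± 0.35 with IFNγ (4.85 ± 0.19, adjusted p = 2.31e-14). The receptor gene Kdr, a marker of vascular cells, rose by 2.31 ± 0.14, as the only one of 14 vascular and fibroblast markers called. Tubb3, a neuronal tubulin that immature glia can express, rose by 1.34 ± 0.23 as the only one of 15 neuronal markers. Without donor 2 Tubb3 was not called. None of 15 markers of T and natural killer cells was called by limma (1 at an unadjusted p under 0.05).

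Among immediate early genes and those of MAP kinase feedback, 4 of 36 rose. Fos stood at 8.37, 7.50 and 7.71 in T3, at 10.21, 9.50 and 9.82 in T3+IFNγ, and at a mean of 9.38 in PDGF (change with IFNγ 1.98 ± 0.17, adjusted p = 1.91e-08). Spry1, a brake on growth factor receptors, rose by 1.51 ± 0.20, Klf4 by 1.41 ± 0.17, and Zfp36, which destabilizes cytokine mRNAs, by 0.82 ± 0.13. Egr1 (0.76 ± 0.40), Dusp6 (0.52 ± 0.27), Etv4 (−0.14 ± 0.27), Etv5 (−0.17 ± 0.25) and Myc (−0.53 ± 0.21) were not called. Stress-linked growth arrest genes Gadd45b and Gadd45g rose by 1.71 ± 0.32 and 1.13 ± 0.32, and Cdkn1a by 0.69 ± 0.20 (adjusted p = 0.0319, and 0.276 without the T3+IFNγ array of donor 2), the only 3 calls of 21 D cyclins and CDK inhibitors, of which 0 held without donor 2 and 1 without donor 3. Cyclin genes Ccnd1 (0.00 ± 0.24) and Ccnd2 (−0.17 ± 0.27) were not called. No gene of cell division and DNA replication was called by limma out of 45 (median −0.10, range −0.39 to 0.23, 1 at an unadjusted p under 0.05), although another probe set of Cdc20 was, and none of 41 cytosolic ribosomal protein genes was (median −0.03, 0 at an unadjusted p under 0.05).

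**Figure D3:**
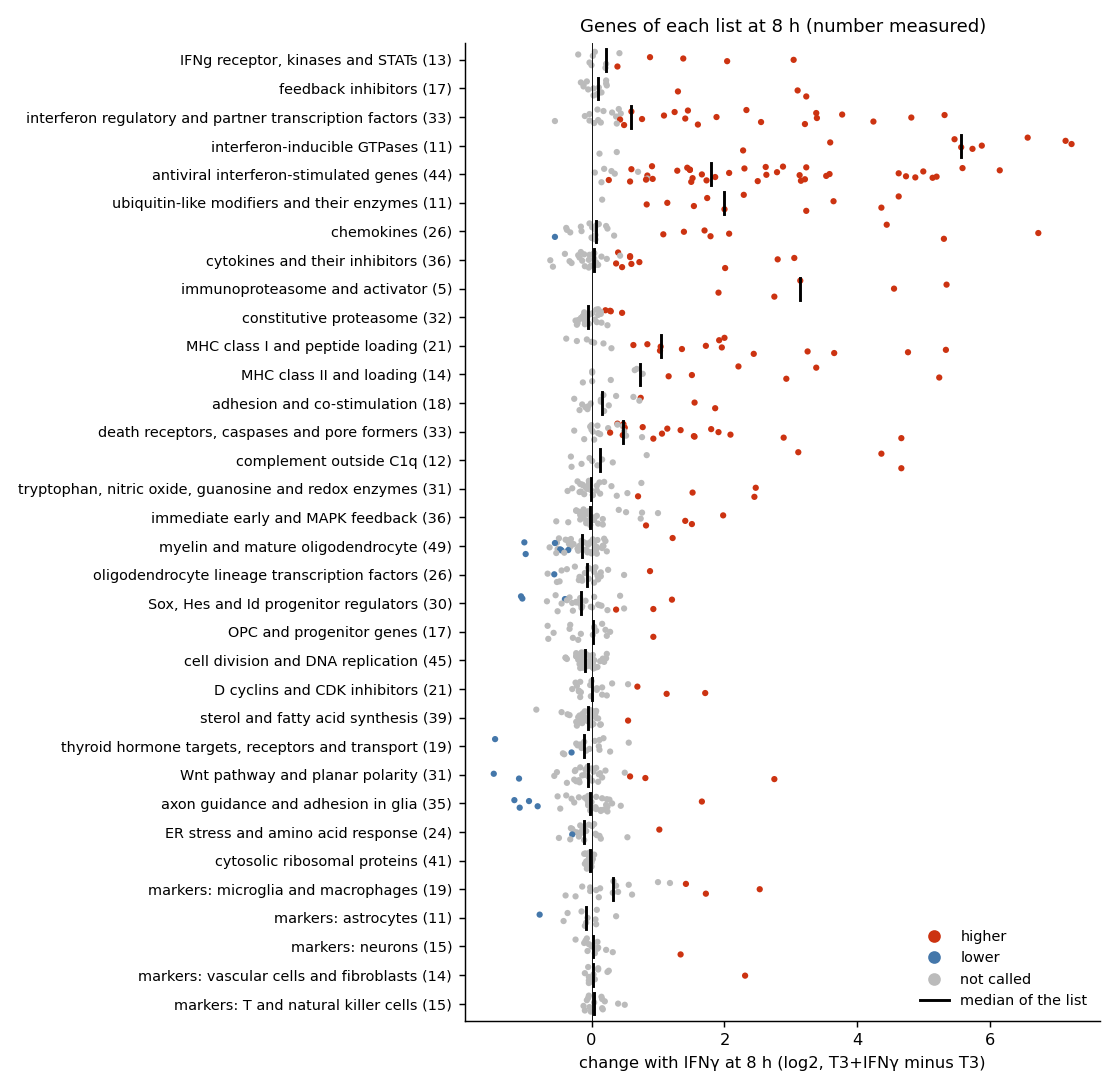
Change with IFNγ at 8 h (log2, horizontal axis) for the measured genes of 34 lists, with the number measured in brackets. Red points rose, blue points fell, grey points were not called and the black bar is the median; the medians of GTPases (5.56) and immunoproteasome (3.14) lie farthest right, and cell division and ribosomal proteins show no called gene.

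The falls at 8 h were smaller, and many of the largest were in genes that stood higher in T3 than in PDGF. Both comparisons use the same 3 T3 arrays, so an array error in T3 would move them together, and their values are given side by side only. Crym, the thyroid hormone binding protein mu-crystallin, was at a mean of 6.96 in PDGF, at 10.78, 9.90 and 9.42 in T3 and at 9.25, 8.46 and 8.06 in T3+IFNγ (−1.45 ± 0.21, adjusted p = 4.67e-05). The changes in donors 1, 2 and 3 were −1.54, −1.44 and −1.36, and every array still lay above the PDGF mean. Lgr5, an R-spondin receptor of the Wnt pathway, was at a mean of 6.99 in PDGF, at 8.53, 7.85 and 7.95 in T3 and at 6.59, 6.54 and 6.81 in T3+IFNγ, below the PDGF mean in all 3 donors (−1.47 ± 0.22, adjusted p = 5.54e-05). Olfml2a, Tcerg1l, Col9a1, Hs3st1, Lhfpl2, Efhd1 and Flrt1 had PDGF means of 4.54, 6.07, 4.26, 5.74, 6.66, 6.10 and 6.64. Their T3 means were 5.92, 7.98, 5.75, 7.97, 7.89, 7.03 and 7.62, and their T3+IFNγ means 4.44, 6.55, 4.38, 6.83, 6.76, 5.84 and 6.44. In these genes the T3 mean was the highest of the 3.

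Pnlip, a lipase gene, had the largest fall, from 11.12, 9.10 and 9.13 in T3 to 9.11, 7.59 and 7.80 (−1.61 ± 0.34, adjusted p = 0.0029). The groups overlapped, donor 1 was highest in both, and each donor was lower with IFNγ. Elfn2, a neuronal-type adhesion gene, went from 8.03, 7.52 and 7.16 to 6.10, 6.14 and 5.77 (−1.57 ± 0.23, adjusted p = 6.3e-05). A second pattern was seen in G0s2, an inhibitor of fat droplet lipolysis, which was at a mean of 8.81 in PDGF, 7.59, 8.18 and 8.23 in T3 and 6.19, 6.68 and 6.69 with IFNγ (−1.48 ± 0.19, adjusted p = 8e-06). Tlcd1 (−1.36 ± 0.16) and Siglec5 (−1.33 ± 0.29) had PDGF means of 7.61 and 5.48, near their T3 means of 7.75 and 5.26. Ephb1, a receptor of axon guidance, fell by 1.16 on the log2 scale and had changes of −1.09, −0.49 and −1.49 at 24, 48 and 96 h, the one at 48 h not called (adjusted p = 0.0584). Of the 15 largest falls, 5 were not called without donor 2 (Pnlip, Tcerg1l, Col9a1, Hs3st1 and Lhfpl2) and 4 without donor 3 (Pnlip, Tcerg1l, Siglec5 and Hs3st1). Hs3st1 was also lost without the T3+IFNγ array of donor 2 (adjusted p = 0.119) and with no donor block (0.0571), and Siglec5 without donor 1 (0.0794) and with no donor block (0.153).

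**Figure D4:**
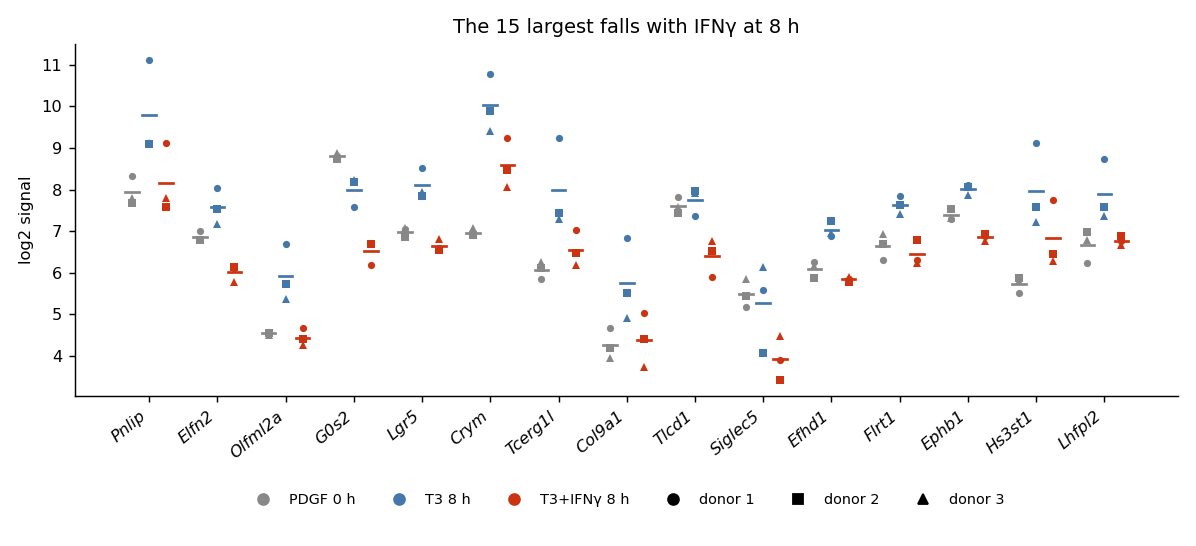
Log2 signal of the 15 genes with the largest falls on each array of PDGF at 0 h (grey), T3 at 8 h (blue) and T3+IFNγ at 8 h (red), with donors 1, 2 and 3 as circles, squares and triangles and bars at the means. In each gene the red mean lies below the blue one, and for Crym it stays above the grey one (8.59 against 6.96).

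Some regulators of the oligodendrocyte lineage were called at 8 h, where 4.66% of all genes rose and 2.86% fell. Of 30 Sox, Hes, Id and related genes, 3 rose and 3 fell, with a median of −0.16. Without donor 2 the counts were 1 and 0, and without donor 3 both were 0. Hes5, a Notch effector that delays differentiation, was at 7.63, 7.62 and 7.51 in T3 and at 7.0, 6.03 and 6.62 with IFNγ (−1.04 ± 0.24, adjusted p = 0.00642). Bmp4, a ligand that favours astrocytes over oligodendrocytes, was at a mean of 6.86 in PDGF, at 10.17, 9.94 and 9.63 in T3 and at 9.22, 8.70 and 8.64 with IFNγ (−1.06 ± 0.26, adjusted p = 0.0101). Without the T3+IFNγ array of donor 2 neither was called (adjusted p = 0.0648 and 0.0906), and Hes6 (−0.40 ± 0.09) still was. Hey1, another Notch target, rose by 1.21 ± 0.26, Sox11 by 0.93 ± 0.21 and Sox2 by 0.37 ± 0.09. The fall of Hes5 was not kept: its changes at 24, 48 and 96 h were 0.21, 0.01 and 0.61, and the 96 h change exceeded that at 8 h by 1.65 ± 0.34 (adjusted p = 0.00343).

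Of 26 lineage transcription factors, Nkx2-2 rose by 0.88 ± 0.25 (adjusted p = 0.0355, and 0.0971 without the T3+IFNγ array of donor 2) and Prrx1 fell (−0.56 ± 0.12). These were the only calls of the 26, a share close to the 7.51% of all genes called in either direction. Without donor 2 or donor 3 neither gene was called. Olig1 (−0.10), Olig2 (−0.66), Sox10 (0.14) and Myrf (−0.45) were not called. Of 19 genes of thyroid hormone action, Crym and the receptor gene Thra (−0.30 ± 0.08, adjusted p = 0.0257) fell, but Thra was not called with no donor block (0.0772) or without donor 1, 2 or 3 (0.127, 0.247 and 0.146). The direct T3 targets Klf9 (−0.17 ± 0.14) and Hr (−0.23 ± 0.16) were not called, although Klf9 had a mean of 7.17 in PDGF and 10.19, 9.55 and 9.40 in T3. In the Wnt list of 31, Tcf7 rose by 2.75 ± 0.22, from 3.66, 3.87 and 3.64 to 5.84, 6.74 and 6.84, with Sfrp1 (0.81 ± 0.13) and Prickle2 (0.58 ± 0.13), while Lgr5 and the Wnt antagonist Sfrp2 (−1.09 ± 0.21) fell and the Wnt reporter gene Axin2 had a change of 0.07 ± 0.11. Of 35 genes of axon guidance, 4 fell (Ephb1, Sema5a, Lingo1 and Sema3d) and Nrcam rose by 1.66 ± 0.19, and the falls numbered 1 without donor 2 and 2 without donor 3. Lingo1, which restrains oligodendrocyte maturation, was at 8.49, 8.57 and 8.54 in T3 and at 7.06, 7.64 and 8.08 with IFNγ (−0.94 ± 0.16, adjusted p = 0.000293), while its other probe sets changed by −0.01 and −0.08.

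Most myelin genes were not called at 8 h: of 49, 6 fell, 1 rose and 42 were not called, with a median of −0.15. Over all genes 2.86% fell and 4.66% rose, so falls were more frequent in this list. An unadjusted p under 0.05 was reached by 14 of the 49. Gal3st1, which makes the myelin lipid sulfatide, was at 8.94, 9.0 and 8.80 in T3 and at 8.32, 8.44 and 8.33 with IFNγ (−0.55 ± 0.10, adjusted p = 0.000635). Ugt8, the enzyme one step before it, was at 10.09, 8.98 and 8.93 and then at 9.28, 7.51 and 8.23 (−0.99 ± 0.27, adjusted p = 0.0228), with the lowest value in the T3+IFNγ array of donor 2. Evi2a (−1.01 ± 0.27) and Omg (−0.47 ± 0.12) fell too, and Adamts4 rose by 1.22 ± 0.23 (adjusted p = 0.00119, but 0.0878 without donor 2 and 0.0522 without donor 3). Without that array Gal3st1 was the only fall of this list, and the falls numbered 1 without donor 2, 2 without donor 3 and 2 with no donor block. Mbp, at 10.29, 8.85 and 9.57 in T3 and 8.92, 8.54 and 9.37 with IFNγ, overlapped between groups (−0.63 ± 0.25, adjusted p = 0.153). Mog, Mobp, Mal and Opalin changed by 0.16, 0.05, −0.32 and −0.09 at 8 h and by −1.93, −2.60, −4.94 and −3.68 at 96 h. At 96 h 23 of the 49 were lower. Progenitor genes Pdgfra (0.02 ± 0.14) and Cspg4 (−0.66 ± 0.24) were not called, nor was any of 39 sterol and fatty acid synthesis genes except Nr1h2, which encodes a sterol sensor (0.55 ± 0.12). Another probe set of Abca1, a gene of the sterol list, was called. In the ER stress list of 24, Edem1 rose (1.02 ± 0.15) and Psat1 fell (−0.29 ± 0.09, adjusted p = 0.0432), a call lost with no donor block, without any 1 donor and without the T3+IFNγ array of donor 2 (adjusted p from 0.0868 to 0.317). Of 11 astrocyte markers Fgfr3 fell (−0.78 ± 0.12).

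A further group had not moved at 8 h and was changed at 24 h. It was defined as genes with an unadjusted p of at least 0.05 at 8 h, a call at 24 h and a called difference between the 24 h and 8 h changes in the same direction. There were 91 such genes, 37 higher (0.26% of all genes) and 54 lower (0.38%) at 24 h. The higher ones were led by RT1-N2, a non-classical class I gene, with 3.89, 3.87 and 3.91 in T3 and 4.78, 4.12 and 3.68 in T3+IFNγ at 8 h, groups that overlapped. Its change was 0.30 ± 0.41 at 8 h and 4.75 at 24 h, a difference of 4.45 ± 0.59 (adjusted p = 0.000197). Lyz2, the lysozyme of myeloid cells, changed by 0.40 at 8 h, 3.25 at 24 h and 5.77 at 96 h. Aldh1l1, an astrocyte marker, had changes of 0.08 and 1.76 at 8 and 24 h, and Vcam1, an adhesion receptor for lymphocytes, of 0.19 ± 0.12 and 1.18. Smoc1, Creb5 and Ets1 had changes between −0.10 and 0.01 at 8 h and of 1.22, 1.28 and 1.24 at 24 h.

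The genes lower at 24 h included Mag, an adhesion protein of the inner myelin membrane. Its signals at 8 h were 5.66, 5.05 and 5.59 in T3 and 4.87, 5.38 and 5.48 with IFNγ, its change was −0.19 ± 0.21, and at 24 h it was −1.48, a difference of −1.30 ± 0.30 (adjusted p = 0.0298). Tafa2, Cpm, Slc15a1, Rab33a and Zdhhc2 had changes of −0.15, −0.14, −0.09, −0.06 and −0.31 at 8 h and of −2.18, −1.74, −1.52, −1.47 and −1.69 at 24 h. Of the promoters found, GAS or ISRE letters stood in 2 of 28 of the genes higher at 24 h and in 3 of 42 of those lower, 7.14% in each. Membership in this group depended on the donors. Without donor 2 no gene met the definition in either direction, and without donor 3, 4 higher and 1 lower did. Without the T3+IFNγ array of donor 2 at 8 h, 21 higher and 43 lower did. The T3+IFNγ array of donor 2 at 24 h, with its raised 3' to 5' difference, was not left out alone. Its part in this group was not tested.

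Most of the early rises were called again later. Of the 275 genes up at least 2-fold at 8 h, 262 were also called higher at 24 h (95.3%), 252 at 48 h (91.6%) and 234 at 96 h (85.1%), and 9 were called higher at none of the later times. Of the 25 genes down at least 2-fold, 18 were called lower at 24 h, 8 at 48 h and 7 at 96 h. Of all genes, 8.05%, 10.3% and 11% were called higher at 24, 48 and 96 h, and 9.73%, 11.9% and 7.9% lower. Conversely, of the 367 genes (2.58%) up at least 2-fold at 24 h, 285 (77.7%) had been called higher at 8 h, whereas of the 99 genes (0.696%) down at least 2-fold at 24 h, 22 (22.2%) had been called lower at 8 h.

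The 275 were picked by a high change at 8 h, and the test of the difference subtracts that same change. Such a choice by itself tends to make the difference lower, for these and for any gene called higher at 8 h. Among the 275, the change at 96 h was lower than at 8 h in 63 and higher in 50 by the test of the difference, which called 444 (3.12%) and 627 (4.41%) of all genes in these directions. With each array centred on its median the counts were 714 lower and 406 higher. At 24 h it called 93 (0.654%) lower and 118 (0.83%) higher. Ptgr1, a prostaglandin and leukotriene reductase, was at 4.51, 3.96 and 4.30 in T3 and at 8.84, 8.48 and 8.36 with IFNγ at 8 h (4.30 ± 0.16). Its changes then ran 2.88, 1.91 and 0.89, and the 96 h change was lower by 3.41 on the log2 scale (−3.41 ± 0.23, adjusted p = 4.62e-09). A2m, a protease trap, had changes of 3.58 at 8 h and 0.59 at 96 h, Rnf128 of 4.85 and 2.27, and Oas1b, an antiviral gene, of 3.13 and 0.60. Prox1, a homeobox gene, was at 8.04, 7.25 and 7.16 in T3 and at 9.44, 8.94 and 9.17 with IFNγ at 8 h (1.69 ± 0.17, adjusted p = 1.9e-07). By 96 h its change was −1.0, called in the opposite direction (adjusted p = 0.00015). Nrcam and Tcf7 were similar in having their largest change at 8 h, with −0.03 and 0.99 at 24 h and −0.07 and 0.28 at 96 h.

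Growing rises were led by Cd74, with 2.21 at 8 h and 6.08 at 96 h (difference 3.87 ± 0.40, adjusted p = 1.96e-06), Ubd, with 4.36 and 8.00, and RT1-A, with 1.80 and 5.06. Plac8 had changes of 3.28 at 8 h and 6.16 at 96 h, and stood at 3.87, 3.58 and 4.08 in T3 and at 7.23, 6.26 and 7.89 with IFNγ at 8 h. Tmem140 differed from these in its course: its change was 1.82, 1.89 and 1.81 at 8, 24 and 48 h and 4.73 at 96 h. The transporter Tap1 (4.76 and 5.80) and the immunoproteasome gene Psmb9 (4.55 and 6.81) had higher changes at 96 h than at 8 h too (adjusted p = 0.00198 and 2.26e-06), whereas Irf1 (5.31 and 5.67, adjusted p = 0.315) and Stat2 (3.04 and 2.69, adjusted p = 0.189) did not pass this test, with differences of 0.37 ± 0.20 and −0.35 ± 0.16.

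**Figure D5:**
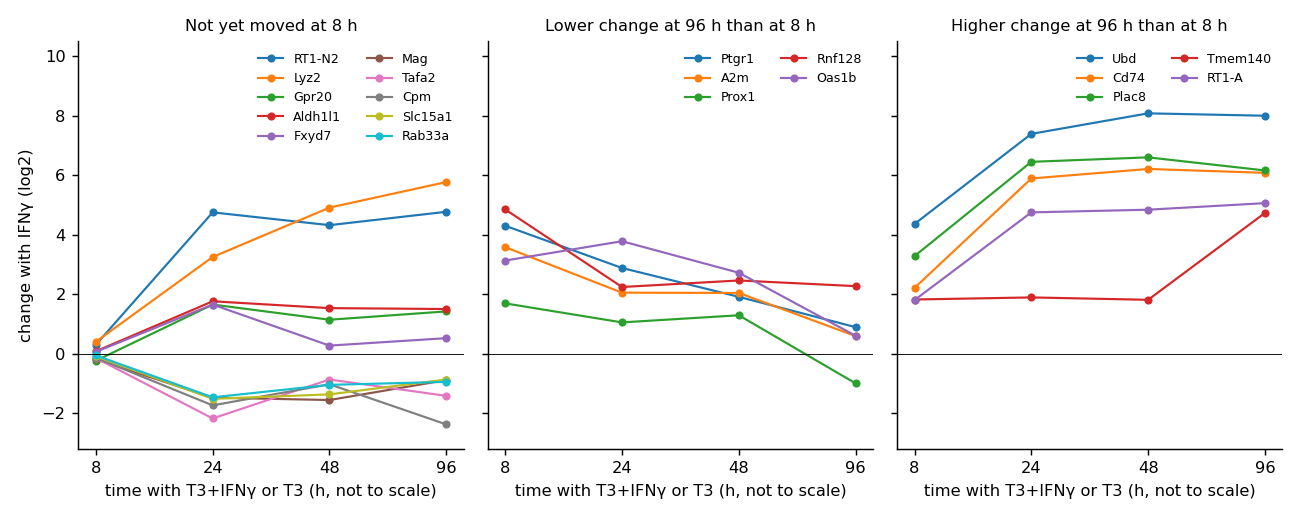
Change with IFNγ (log2, vertical axis) at 8, 24, 48 and 96 h (horizontal axis, not to scale) for 10 genes that had not moved at 8 h (left), the 5 called genes with the most negative difference between 96 h and 8 h (middle) and the 5 with the most positive one (right). Lyz2 goes from 0.40 to 5.77, Ptgr1 from 4.30 to 0.89 and Cd74 from 2.21 to 6.08.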

How the data were processed

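Rat OPCs of 3 donors in 9 groups were profiled on 27 Affymetrix arrays. The authors deposited log2 signals computed with RMA (background correction, quantile normalization and probe set summary), and their notes also name limma; neither has a version in the sources used here. The deposited log2 values run from 2.28 to 14.49, with array medians of 5.95 to 6.03, and were used as deposited. Of 31099 probe sets, 57 were controls, 20832 had 1 gene symbol, 436 several and 9831 none in the platform annotation of 2016, and 20764 of the 20832 were matched to RefSeq by Entrez identifier. This gave 14218 genes, 4526 with more than 1 probe set, each represented by its brightest probe set over all arrays. No gene had probe sets called in opposite directions at 8 h. In 101 genes the brightest probe set was not called and another was. Of these, 5 were in the lists (Abca1, Cdc20, Pdia3, RT1-Ba and RT1-Bb). No detection call was used, and the number of arrays limits the precision.

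R 4.3.3 with limma 3.58.1 fitted group means and donor blocks over all 27 arrays (lmFit, eBayes), two-sided, with Benjamini-Hochberg adjustment within each comparison. Differences between times were interactions. The labels give the donor of each array, and the donors pair the arrays: deviations from group means correlated with a median r of 0.31 within donors and −0.171 between donors, and with 0.764, 0.521 and 0.692 in the 3 pairs at 8 h. Deviations cancel over the 3 donors of a group, so the value between donors follows from that within donors and adds no support of its own. No 2 arrays were identical. The labels do not say whether a donor is 1 animal. The steps were tested on simulated data.

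Genes were named by rule: the 15 largest rises and falls called and alike in all donors, key members and up to 5 called members of each of 34 lists with any that went against their list, the 10 largest 24 h differences each way among genes not yet moved, and the 5 largest 96 h differences each way among genes called at 8 h. Other genes of the lists (Aif1, Csf1r, Tyrobp, C1qa, C1qb, Ptprc, Cd14, Tyk2, Stat4, Stat5a, Stat5b, Cdc20, Abca1, Pdia3) and the promoters shown were chosen after their values were seen. The comparison, the gene lists and these rules were chosen with earlier results of these data known, so no list is independent evidence. Alternatives were fits with no block, a random block, the 6 arrays alone, median centring, a filter on low signal, the mean of probe sets, an intensity trend, and leaving out each donor or 1 array. Tables were prepared in pandas 2.3.3 and NumPy 2.4.6 (Python 3.11.15), and plots in matplotlib 3.10.9.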

Additional observations from a re-analysis of the deposited data

Results flagged for a closer look

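The change with IFNγ differed between 8 h and later times in many genes by the interaction test in limma. It was higher at 24 h in 118 genes and lower in 93, and higher at 96 h in 627 and lower in 444. Both counts for 96 h depended on donors 2 and 3: without donor 2 they were 200 and 150, and without donor 3 149 and 141.

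Among genes called at 8 h, the differences at 96 h were 3.87 for Cd74, 3.64 for Ubd, 3.26 for RT1-A, 2.91 for Tmem140 and 2.88 for Plac8 in the higher direction. In the lower direction they were −3.41 for Ptgr1, −2.99 for A2m, −2.69 for Prox1, −2.59 for Rnf128 and −2.53 for Oas1b. These genes were picked by a call at 8 h, and each difference subtracts that same 8 h change.

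Among genes that had not moved at 8 h, the differences at 24 h were 4.45 for RT1-N2, 2.85 for Lyz2, 1.89 for Gpr20, 1.68 for Aldh1l1, 1.59 for Fxyd7, 1.32 for Smoc1, 1.30 for Creb5, 1.23 for Ets1, 1.17 for C13h1orf21 and 1.14 for Vgll4. The lower ones were −2.03 for Tafa2, −1.60 for Cpm, −1.43 for Slc15a1, −1.41 for Rab33a, −1.38 for Zdhhc2, −1.31 for Tmcc2, −1.30 for Mag, −1.27 for Gask1b, −1.27 for Reln and −1.25 for Dbndd2.

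Probe sets left out of the gene comparison also carried signal. Of 436 probe sets annotated with several gene symbols, 21 rose and 6 fell at 8 h. Of 9780 with no gene symbol, 258 rose and 104 fell, 92 and 13 of them at least 2-fold, with a largest change of 6.81.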

How the results depend on the processing

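No gene called at 8 h, among those named, reversed its direction under any of the 11 alternatives. Changes that were not called could change sign. The cause of the changes below was not tested. With no replicate block for donors, 224 genes fell (406 with it), 15 and 25 genes were higher and lower at 24 h among those not yet moved (37 and 54 with it), and 318 had a higher change at 96 h than at 8 h (627 with it). The 662 rises became 524, the 275 rises of at least 2-fold 264, and the 25 falls of at least 2-fold 20. Leaving out each donor in turn gave 410 to 699 rises, 67 to 525 falls, 14 to 27 falls of at least 2-fold, and 254 to 278 rises of at least 2-fold. For genes not yet moved it gave 0 to 44 higher and 0 to 84 lower, and for the 96 h difference 149 to 514 higher and 141 to 464 lower. Without the T3+IFNγ array of donor 2, 202 genes fell and 21 of those not yet moved were higher. With each array centred on its median, 406 genes had a higher and 714 a lower change at 96 h than at 8 h, so that lower changes became the more frequent. Of the 227 genes named by rule, 215 kept their side of the threshold with no block, 210 without donor 1, 191 without donor 2, 194 without donor 3, 210 without that array and 227 with an intensity trend. Each of the 15 largest rises was called under all 11 alternatives. With 3 donors, small changes can be missed, and the fits without a donor rest on 2 pairs.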
